A study of Mus musculus with 82 samples.

Results

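The 8 genes Ppp1r1b, Rgs9, Pde10a, Pde1b, Gng7, Adora2a, Drd2 and Rasd2, which mark the projection neurons of the striatum, were followed in mRNA arrays of the mouse extended amygdala. The members were found by gene symbol, which gave 16 probes, and 7 of the 8 genes had a probe in all 3 normalized tables (11 probes), out of 13241 gene symbols kept for the comparison of fractions. All mice were 2 months old C57BL/6J females. Alcohol mice chose between water and 20% ethanol around the clock for 30 days, and control mice had water alone. From each dissected extended amygdala, 10% of the homogenate was kept as total homogenate (TH). The rest was pressed through 100 µm and 5 µm filters and spun at 14000 g for 20 min to give synaptoneurosomes (SN), a preparation enriched in pinched-off synaptic endings. The tissue was cut by hand from coronal slices, so an array reports a mixture of cell types. In such bulk samples fewer cells of a type and less RNA per cell cannot be told apart.

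Medium spiny neurons are the GABAergic projection neurons that make up most of the striatum, and cells of related type are found in the central amygdala and the bed nucleus of the stria terminalis. They fall into a D1 class, in which dopamine raises cyclic AMP (cAMP), and a D2 class, in which dopamine lowers it and adenosine raises it. Drd2 encodes the dopamine D2 receptor and Adora2a an adenosine receptor, both marks of the D2 class. Gng7 encodes a G protein gamma subunit that assembles with the striatal G protein Golf, Rgs9 a protein that shortens G protein signals, and Rasd2 (also Rhes) a small GTPase. Pde10a and Pde1b encode phosphodiesterases that break down cyclic nucleotides, and Ppp1r1b encodes DARPP-32, a protein that inhibits protein phosphatase 1 once cAMP signalling has phosphorylated it.

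The mRNA tables held 40 arrays, with 13 control and 8 alcohol mice in SN and 11 control and 8 alcohol mice in TH. The authors titled the TH arrays of controls 11 and 12 as outliers, and these are not analysed here. Probes detected at p under 0.01 numbered between 15759 and 17985 per array. SN and TH of a mouse were made from 1 homogenate, so their deviations from the group means should go together. Over 500 variable probes of genes on none of the lists used here, this correlation was 0.57 at the median of 19 mice. It was 0.12 for control 4, 0.0064 for control 9 and 0.09 for control 13, and the SN array of control 4 correlated at 0.68 with the TH array of control 10. For control 10 it was 0.40, against 0.41 for its SN array with the TH array of control 9. The labelled pairs were kept, and the values without controls 4, 9, 10 and 13, whose SN arrays correlated best with the TH array of another mouse, are given where a result rests on them.

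Of the D2-class receptors, Drd2 was detected on every array and Adora2a on few. Adora2a had 1 probe, detected at p under 0.05 on 3 of 21 SN arrays and 1 of 19 TH arrays. Its mean signal was 114 ± 8.93 (SD, n = 13) in control SN and 115 ± 4.43 (SD, n = 11) in control TH, and its detection p had medians of 0.122 and 0.203. In alcohol mice the mean signal was 112 ± 8.60 in SN and 120 ± 9.48 in TH (SD, n = 8 each). These signals lie at the array's background, so Adora2a is not described further, and the other 7 genes were kept by the detection filter. Another 4 probes, of Ppp1r1b, Pde10a and Gng7, were outside the normalized tables as well.

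Levels are given as the authors' normalized values, a log2-like scale on which differences are compressed at low signal. SN and TH were normalized apart, and levels of different probes are not compared. Rgs9 ranged from 8.73 through a median of 9.24 to 10.51 in SN of control mice and from 8.79 through 9.44 to 11.09 in SN of alcohol mice. In TH it ranged from 9.14 through 9.80 to 10.88 in control mice and from 9.26 through 9.82 to 11.75 in alcohol mice. The control and alcohol ranges overlapped, with alcohol mouse 8 above every control in both fractions, and within control TH alone the highest mouse had 3.34 times the lowest. Ppp1r1b ran from 10.54 through 11.12 to 11.63 in control TH and from 10.56 through 11.16 to 12.47 in alcohol TH. In SN it ran from 10.32 through 10.66 to 11.33 in controls and from 10.14 through 10.72 to 11.75 in alcohol mice. Rasd2 showed the same kind of width, from 10.42 through 10.94 to 11.35 in control TH and from 10.59 through 10.92 to 11.69 in alcohol TH. Its SN values lay between 10.29 and 11.13, around a median of 10.63, in controls and between 10.41 and 11.31, around 10.60, in alcohol mice.

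On this scale the phosphodiesterases, Drd2 and Gng7 had narrow ranges in TH of control mice. Drd2 and Pde10a lie where low signal compresses the scale, so their widths are not compared with those of other genes. In average signal, control TH ran from 133 to 222 for Drd2 and from 1630 to 2543 for Rasd2. Pde1b lay between 12.23 and 12.51 in control TH, with a median of 12.44, against 12.23 to 12.87 with a median of 12.48 in alcohol TH. Gng7 lay between 11.08 and 11.39, with a median of 11.23, in control TH and between 11.22 and 11.96, with a median of 11.38, in alcohol TH. In SN, Gng7 ran from 11.07 through 11.64 to 12.20 in controls and from 11.42 through 11.49 to 12.47 in alcohol mice. Gng7 thus had its wider spread in SN, where Rgs9 and Ppp1r1b were about as wide as in TH. In SN, Pde1b ran from 11.92 through 12.20 to 12.60 in controls and from 11.92 through 12.04 to 12.89 in alcohol mice, again overlapping. Drd2, close to the floor of the scale, lay between 7.98 and 8.37 (median 8.06) in control TH and between 8.01 and 8.53 (median 8.13) in alcohol TH. In SN its range was 7.79 to 8.10 (median 7.85) in controls and 7.87 to 8.54 (median 7.93) in alcohol mice. Pde10a, also near the floor, lay between 8.09 and 8.36 (median 8.17) in control TH and between 8.10 and 8.58 (median 8.24) in alcohol TH, and between 7.93 and 8.22 in control SN and 7.92 and 8.24 in alcohol SN. The groups overlapped for each of these genes. Alcohol mouse 8 was the highest of all mice for 7 of the 7 genes in TH and for 7 of 7 in SN.

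**Figure D1:**
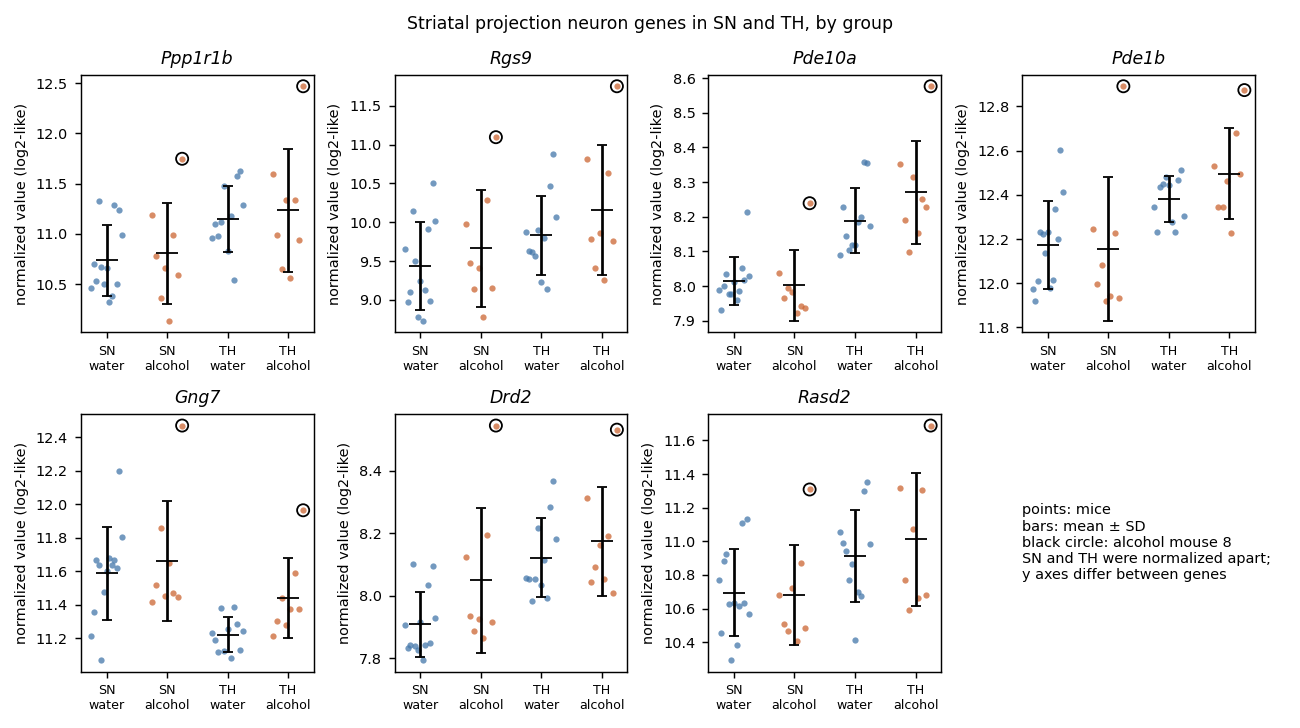
Normalized value (log2-like, y axis) of each gene's probe of highest level in SN and TH of water and alcohol mice. Points are mice, bars are mean ± SD, and the black circle marks alcohol mouse 8, the highest point for 7 of 7 genes in both fractions.

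In control mice Gng7 was the 1 member that passed the test between fractions, and it was higher in SN than in TH. The question of this comparison is which mRNAs are enriched in the synaptic fraction. Gng7 averaged 11.67 ± 0.22 in SN and 11.09 ± 0.10 in TH (SD, n = 11 each), a difference of 0.57 (SE 0.06, adjusted p = 1.32e-05, limma with the mouse as a block), and SN was higher in 11 of 11 mice. Its second probe, near the floor, was higher in 10 of 11 mice by 0.20 (SE 0.04, adjusted p = 0.000715). Of 17820 probes 18.9% were called higher in SN and 20.6% lower, so 1 call among 7 genes is no more than the background. The exact sign-flip test of the Gng7 difference gave p = 0.000977 (two-sided), the smallest that 11 pairs allow.

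The other 6 genes did not pass. Rgs9 stood at -0.20 (SE 0.13, adjusted p = 0.264) and Ppp1r1b at -0.18 (SE 0.10, adjusted p = 0.158), with SN the lower in 8 and 9 of 11 mice. Pde10a (0.02, SE 0.03), Pde1b (-0.01, SE 0.05), Drd2 (-0.02, SE 0.04) and Rasd2 (0.00, SE 0.06) had adjusted p from 0.66 to 0.99. Intervals of 2 SE either side ran from -0.46 to 0.07 for Rgs9, from -0.37 to 0.01 for Ppp1r1b and from -0.13 to 0.13 for Rasd2. The second probes of Rgs9 (0.02) and Pde1b (0.04) had the opposite sign, and neither passed.

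The Rgs9 differences of controls 4, 9 and 10 lay outside those of the other 8 mice. For Rgs9, SN minus TH was 0.83 in control 4, -1.07 in control 9 and -0.72 in control 10, against -0.39 to 0.20 in the other 8 mice. For Ppp1r1b it was 0.48 in control 4 and -0.94 in control 9, against -0.55 to 0.02 in the other 9 mice. Without controls 4, 9, 10 and 13, Ppp1r1b (-0.21, SE 0.06, adjusted p = 0.0300) and Rgs9 (-0.20, SE 0.05, adjusted p = 0.0106) passed as lower in SN, and Gng7 stood at 0.51 (SE 0.08, adjusted p = 0.00139). With control 13 kept and the other 3 left out, Ppp1r1b passed (-0.18, SE 0.06, adjusted p = 0.0338) and Rgs9 did not (-0.15, SE 0.06, adjusted p = 0.0870). Without control 4 alone, Ppp1r1b (-0.25, adjusted p = 0.0346) and Rgs9 (-0.30, adjusted p = 0.0403) both passed. Controls 4, 9, 10 and 13 were chosen after seeing the data, because their SN arrays correlated best with the TH array of another mouse. For control 10 the margin was small, 0.41 against 0.40 with its own TH array, and control 2, at 0.30, was kept. Leaving out the most extreme differences lowers the SE by itself, so the calls gained this way are not independent support. For Rgs9 the SE was 0.13 in all 11 mice and 0.05 without controls 4, 9, 10 and 13. Whether the tubes of these mice were exchanged was not tested.

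**Figure D2:**
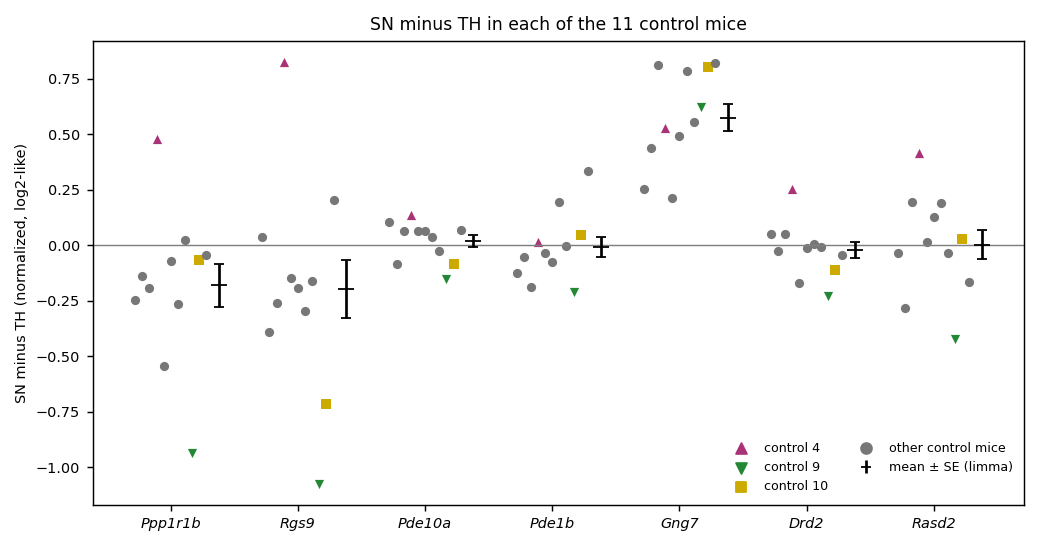
SN minus TH (normalized, log2-like, y axis) for 7 genes in each of the 11 control mice, with controls 4, 9 and 10 marked and the limma mean ± SE in black. All 11 points of Gng7 lie above 0, and the Rgs9 points of control 4 (0.83) and control 9 (-1.07) lie at opposite ends.

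In alcohol mice, measured on 8 pairs not used above, Gng7 was again higher in SN. This comparison used log2 signals normalized jointly over both fractions. Gng7 averaged 11.92 ± 0.34 in SN and 11.44 ± 0.24 in TH (SD, n = 8 each), a difference of 0.48 (SE 0.06, adjusted p = 6.95e-06, limma), with SN higher in 8 of 8 mice, and its second probe stood at 0.42 (SE 0.05). Drd2 was also called higher, by 0.15 (SE 0.06, adjusted p = 0.0378, 6 of 8 mice), while Rgs9 fell by 0.27 (SE 0.06, adjusted p = 0.00241, lower in 8 of 8 mice) and Ppp1r1b by 0.18 (SE 0.06, adjusted p = 0.0182, lower in 7 of 8). Pde10a (-0.10), Pde1b (-0.11) and Rasd2 (-0.07) did not pass. Of the 17265 probes, 21.2% were called higher in SN and 24.5% lower, against 2 and 2 of the 7 genes. The second probes of Rgs9 (-0.12, adjusted p = 0.0697) and Ppp1r1b (0.03, adjusted p = 0.719) did not pass. The Drd2 call was lost without alcohol mouse 2, 6, 7 or 8 (adjusted p 0.0715, 0.105, 0.0806 and 0.109). The Ppp1r1b call was lost without mouse 4 or 8 (adjusted p 0.0589 and 0.0557), Pde10a passed without mouse 3 (-0.15, adjusted p = 0.00869) and Pde1b without mouse 8 (-0.15, adjusted p = 0.0232).

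On this joint scale the mean SN minus TH differences of control and alcohol mice were as follows. Rgs9 averaged -0.24 in control and -0.27 in alcohol mice, Ppp1r1b -0.19 and -0.18, and Gng7 0.58 and 0.48. The second probe of Gng7 averaged 0.35 and 0.42, a difference of opposite sign (0.07 against -0.09) that did not pass. Pde1b averaged -0.01 and -0.11, and Rasd2 0.00 and -0.07. Pde10a averaged 0.04 in control and -0.10 in alcohol mice, a difference of -0.14 (SE 0.08, p = 0.0766, adjusted p = 0.452). Drd2 averaged -0.05 in control and 0.15 in alcohol mice, a difference of 0.20 (SE 0.10, p = 0.0599, adjusted p = 0.421). No member's SN minus TH difference was called different between alcohol and control mice, and 0 of 17265 probes were called (0%), with 12.3% at an unadjusted p under 0.05. Adjusted p ran from 0.42 to 0.98 over the 7 genes. So the calls of Drd2, Rgs9 and Ppp1r1b in alcohol mice, not made in control mice, are not shown to differ between them.

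From mouse to mouse 6 of the 7 genes varied together, and Gng7 followed them less. After removal of group means, the 15 pairs without Gng7 correlated at 0.63 to 0.94 over 19 TH arrays (Pearson; Spearman 0.40 to 0.93) and at 0.72 to 0.92 over 21 SN arrays. For each pair, the 2 arrays farthest from the median of its alphabetically first gene were then left out. The 15 pairs stayed between 0.33 and 0.91 in TH and between 0.40 and 0.90 in SN. An array extreme only for the other gene could stay in. The 6 pairs with Gng7 correlated at 0.34 to 0.54 in TH and at 0.48 to 0.80 in SN, where the highest, with Pde10a (0.80) and Pde1b (0.72), reached into the range of the other pairs. Without alcohol mouse 8 they lay between -0.25 and 0.15 in TH and between 0.22 and 0.67 in SN, so in TH the positive values of Gng7 rested on that mouse. These correlations are descriptions over arrays that share mice and tissue, and the genes were chosen as markers of 1 cell type.

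The genes most like the members in TH were mostly other striatal markers. Over 13548 genes, the mean standardized deviation of the 7 members correlated best with Scn4b (r = 0.96, n = 19), a sodium channel beta subunit. Drd1 (0.94; Drd1a on the array) and Rarb (0.93), a retinoic acid receptor, were also among the most alike. The transcripts D330017J20Rik (0.93) and LOC238321 (0.92), which have no current symbol here, were too. In SN these 5 correlated at 0.81 to 0.95 (n = 21). Without alcohol mouse 8 their TH values were 0.84 to 0.95.

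**Figure D3:**
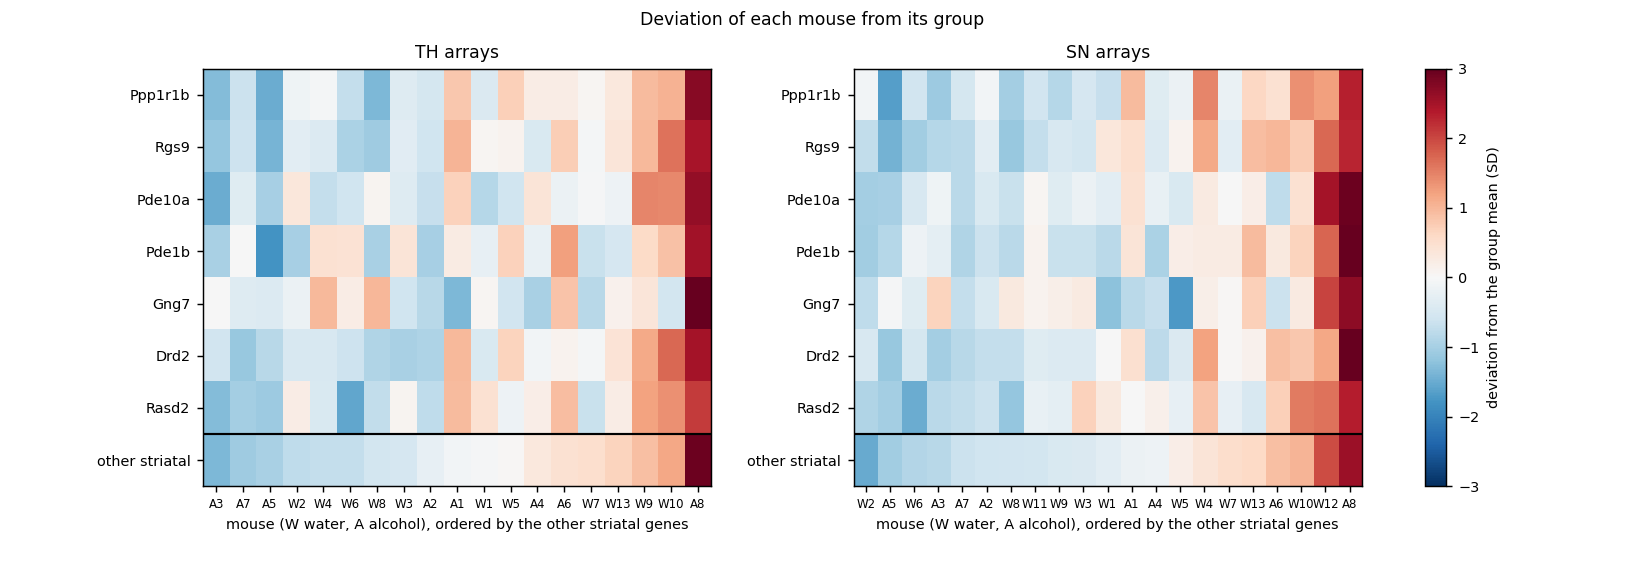
Deviation of each mouse from its group mean, in SD of that gene (colour, cut at 3 SD), for 7 genes and the mean of the other striatal genes, in TH (left) and SN (right). Mice are ordered by the other striatal genes; alcohol mouse 8 is at the right end in both, and the Gng7 line follows the order least.

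Promoter sequence is shown for Rgs9 and Drd2, which varied together, and for Gng7, which followed them less, in TH above all. RefSeq promoter entries (GRCm38.p6) matched 6 of the 8 genes with 10 entries, and the 250 bases before the start are printed from 5′ to 3′ on the gene's strand. Capitals mark matches to the motifs searched. The promoter motifs were the GC box, spelled GGGCGG, the CCAAT box, spelled by its name, and the TATA box, spelled TATAAA. For the cAMP response element the core was spelled TGACG and the whole was TGACGTCA, and a direct-repeat retinoic acid element was searched as well. Both strands were searched, so a match on the opposite strand appears as its reverse complement. The core lies within the whole element, so those searches overlap.
Rgs9, chr11:109298182-109298431, minus strand: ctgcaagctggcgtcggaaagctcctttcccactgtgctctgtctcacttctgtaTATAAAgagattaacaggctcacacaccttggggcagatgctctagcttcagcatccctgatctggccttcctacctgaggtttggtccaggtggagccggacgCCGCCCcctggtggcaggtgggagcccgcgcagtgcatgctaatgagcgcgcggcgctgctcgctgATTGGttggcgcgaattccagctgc
Drd2, chr9:49340153-49340402, plus strand: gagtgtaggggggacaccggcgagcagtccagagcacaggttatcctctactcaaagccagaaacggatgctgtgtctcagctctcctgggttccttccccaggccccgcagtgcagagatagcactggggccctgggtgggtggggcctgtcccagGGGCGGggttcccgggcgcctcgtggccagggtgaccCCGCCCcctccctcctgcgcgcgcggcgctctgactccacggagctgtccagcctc
Gng7, upstream entry, chr10:81014926-81015175, minus strand: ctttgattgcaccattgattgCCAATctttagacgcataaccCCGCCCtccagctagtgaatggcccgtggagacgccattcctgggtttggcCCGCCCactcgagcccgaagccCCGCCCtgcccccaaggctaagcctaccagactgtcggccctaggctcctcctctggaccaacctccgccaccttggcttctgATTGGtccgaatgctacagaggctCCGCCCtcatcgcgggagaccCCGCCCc
Gng7, downstream entry, chr10:81001366-81001615, minus strand: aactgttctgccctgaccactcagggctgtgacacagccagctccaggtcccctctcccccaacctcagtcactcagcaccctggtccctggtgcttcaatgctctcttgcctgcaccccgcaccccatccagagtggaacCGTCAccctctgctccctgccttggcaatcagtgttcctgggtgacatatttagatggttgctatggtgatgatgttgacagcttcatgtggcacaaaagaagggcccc

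The GC box letters were found in 5 of the 10 members' entries and in 32.7% of 32851 promoter windows of the same length, and the CCAAT letters in 3 of 10 and 33.8%. TATAAA was found in 1 entry, that of Rgs9, and in 12.4% of all windows, and TGACG in 1 entry, the downstream one of Gng7, and in 17.8%. The whole cAMP response element was found in 0 of the 10 entries and in 1.55% of all windows, and the retinoic acid element in 0 of 10 and 0.00913%. The upstream entry of Gng7 holds 5 matches to the GC box and Drd2 holds 2. A match describes letters and not a site in use.

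Over all 19 mice the members' deviations in SN and TH went together more than those of most probes, in part because of alcohol mouse 8. The share of variance between mice, meaning the covariance of SN and TH deviations over their mean variance, was 81.2% for Rgs9, 78.2% for Ppp1r1b and 76.3% for Rasd2. It was 69.5% for Drd2, 66.4% for Pde1b, 61.4% for Gng7 and 57.3% for Pde10a. The median over all probes was 26.2%, and the reported probes of the 7 genes lay between the 88.8th and the 99th percentile of probes. Second probes ran from 44.3% (Gng7, percentile 75.5) to 72.7% (Pde1b, percentile 97.2). With array medians in place of quantiles the reported Gng7 probe stood at 45.3% (percentile 73.7). The probes behind these percentiles were not matched to the members for level. What SN and TH of a mouse share includes the cut tissue, the mouse and any shared handling, and these cannot be told apart. Without alcohol mouse 8 the shares ran from 17.5% (Pde10a) to 71.6% (Rgs9), with Gng7 at 23.4%, Pde1b at 42.5% and Drd2 at 48.9%, at percentiles from 37.3 to 96.7. In control mice alone they ran from 7.09% (Pde10a) to 59.3% (Rasd2), with percentiles from 28.9 to 89.5. Their median was then 32.5%, against 24.5% over all probes. Without controls 4, 9, 10 and 13 they ran from 65.5% (Gng7) to 96.4% (Rgs9), a rise that leaving out mice by how their fractions matched fixes by itself.

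The other striatal genes were a list of 60 symbols, 38 of them kept. Within a fraction they accounted for much of the variance of most members. Their mean standardized level accounted for 79.8% of the within-group variance of Ppp1r1b in TH, 79.5% of Rgs9, 76.8% of Drd2, 70.1% of Pde10a and 67.4% of Rasd2, against a median of 4.33% over all probes. It accounted for 49.1% in Pde1b and 23.7% in Gng7. In SN it accounted for 82.1% in Rgs9, 81.4% in Pde1b and 39.9% in Gng7. Without alcohol mouse 8 the TH values were 72.3% for Rgs9 and 66.3% for Drd2, but 23.5% for Pde1b and 4.42% for Gng7, and in SN Gng7 stood at 12.9%. Markers of neighbouring tissue accounted for less: in TH, choroid plexus markers for 0.03% to 8.59%, thalamic and hypothalamic markers for 0.02% to 3.05% and cortical and hippocampal markers, with which 7 of 7 genes ran in the opposite direction, for 2.35% to 22.5%. Over all probes the medians were 2.45%, 5.05% and 3.67%, and Rasd2 lay at the 91.7th percentile for the cortical and hippocampal markers. The highest member values were, with alcohol mouse 8 left out, 16.6%, 9.39% and 22.7%. In SN the highest were 12.3%, 4.41% and 20.2%, against medians of 5.51%, 3.04% and 3.41%. There Gng7 did not run opposite to the cortical and hippocampal markers (r = 0.06). These marker lists held 9 to 15 kept genes against 38, and the 38 were chosen as markers of the members' own cell type. Without alcohol mouse 8, choroid plexus markers in SN accounted for 21.9% in Pde10a. In Gng7 they then accounted for 13.4%, about as much as the other striatal genes (12.9%). Alcohol mouse 8 also had the highest mean of the other striatal genes in both fractions. These percentages within a fraction are not the share between mice given above. After regression on the other striatal genes that share was 67.7% for Rasd2, 66.0% for Ppp1r1b, 61.1% for Rgs9 and 46.6% for Gng7. It was 30.5% for Pde10a, 21.8% for Drd2 and 12.1% for Pde1b, against a median of 25.4% over all probes.

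**Figure D4:**
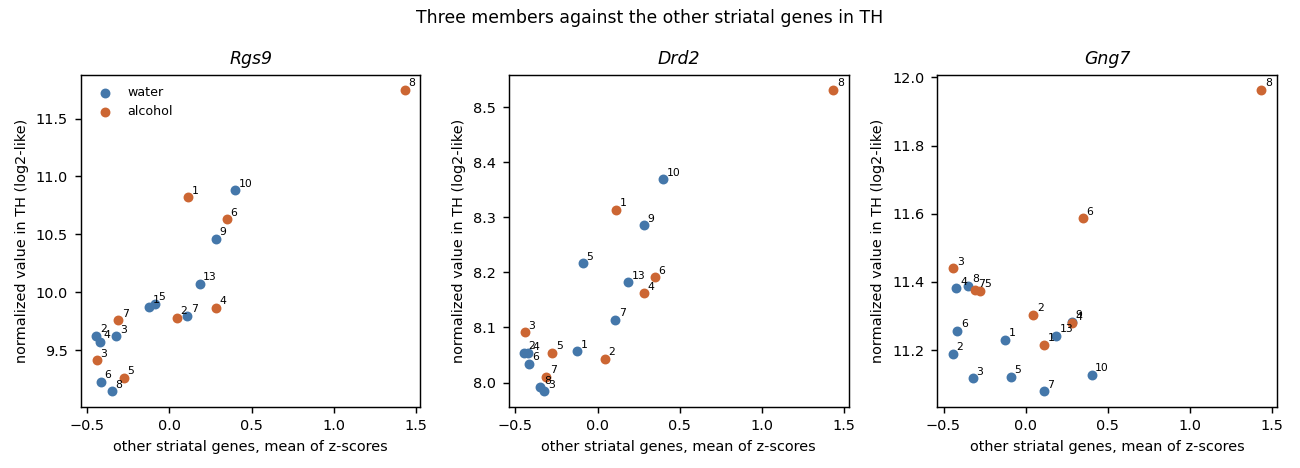
Normalized value in TH (log2-like, y axis) of Rgs9, Drd2 and Gng7 against the mean of z-scores of the 38 other striatal genes (x axis), one point per mouse with its number. Rgs9 and Drd2 climb along the x axis through water and alcohol mice alike, while Gng7 shows no such climb apart from alcohol mouse 8 at the upper right.

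None of the 7 genes passed the test between alcohol and control mice in either fraction. This comparison asks which mRNAs differ after 30 days of drinking. In SN, 0 of 17514 probes were called (0%), with 10.7% at an unadjusted p under 0.05, and none of the 7 genes was among the latter. Drd2 came closest, at 8.05 ± 0.23 (SD, n = 8) in alcohol mice and 7.91 ± 0.10 (SD, n = 13) in controls. The difference was 0.14 (SE 0.07, p = 0.0597, adjusted p = 0.465, limma), with 8 of 8 alcohol mice above the control median. Rgs9 differed by 0.23 (SE 0.27, adjusted p = 0.719), and the interval of 2 SE either side ran from -0.32 to 0.78. Ppp1r1b (0.07), Gng7 (0.07), Pde10a (-0.01), Pde1b (-0.02) and Rasd2 (-0.01) had adjusted p from 0.82 to 0.97. The second probes of Rgs9 (-0.03) and Pde1b (0.01) had the opposite sign, and neither passed. Without alcohol mouse 8 Drd2 stood at 0.07, Rgs9 at 0.02 and Gng7 at -0.04.

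In TH the reported probes of the 7 genes all had a higher mean in alcohol mice, by 0.05 to 0.33, and none passed. The second probe of Ppp1r1b stood at -0.01 and that of Rgs9 at 0.09, without passing. Over all genes, 6687 of 13555 differences lay above 0. Of 18318 probes 0 were called (0%), and 3.12% had an unadjusted p under 0.05, among them Gng7. Gng7 averaged 11.44 ± 0.24 (SD, n = 8) in alcohol mice and 11.22 ± 0.10 (SD, n = 11) in controls. The difference was 0.22 (SE 0.08, p = 0.00874, adjusted p = 0.999), with 7 of 8 alcohol mice above the control median. The exact permutation test of this 1 value gave p = 0.00409 (two-sided, not adjusted). Its second probe differed by 0.07 (p = 0.0166, adjusted p = 0.999), and the second probe of Pde1b by 0.16 (p = 0.0417, adjusted p = 0.999). Rgs9 differed by 0.33 (SE 0.29, adjusted p = 0.999), Pde1b by 0.11, Rasd2 by 0.10, Ppp1r1b by 0.08, Pde10a by 0.08 and Drd2 by 0.05. The median of all genes was 0.00 in TH, and 1 mouse carried a large part of the members' differences. Without alcohol mouse 8, Gng7 stood at 0.15, Rgs9 at 0.10, Drd2 at 0.00, Rasd2 at 0.00 and Ppp1r1b at -0.09.

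With the other striatal genes as a covariate the differences moved towards 0 or past it for most members in TH, with 0 of 7 genes called in either fraction. This covariate is built from markers of the same cell type as the members. It would also take up any alcohol effect on these cells, so the shift cannot tell tissue spread from such an effect. In TH Rgs9 moved from 0.33 to -0.02 (SE 0.14), Drd2 from 0.05 to -0.02 (SE 0.04) and Pde10a from 0.08 to 0.02 (SE 0.03), while Ppp1r1b moved from 0.08 to -0.16 (SE 0.10). Gng7 kept most of its difference, at 0.17 (SE 0.07, p = 0.0254, adjusted p = 1.00). The covariate accounted for 23.7% of the variance of Gng7 in TH, and 4.42% without alcohol mouse 8, so this small shift says little. In SN Rgs9 moved to 0.10 (SE 0.12), and Drd2 stood at 0.11 (SE 0.04, p = 0.00598, adjusted p = 0.270). The standard error of Rgs9 in TH fell from 0.29 to 0.14 and that of Drd2 in SN from 0.07 to 0.04. A covariate that correlates with the members lowers the standard error by itself. The summed signal of 9 choroid plexus markers in SN ran from 11.68 to 15.32 (log2) in controls, highest in control 12, and from 11.75 to 12.70 in alcohol mice. With these markers as a covariate Rgs9 in SN stood at 0.40 (SE 0.29, adjusted p = 0.878) and Drd2 at 0.17 (SE 0.08, adjusted p = 0.878). Thalamic and hypothalamic markers as a covariate left Rgs9 in SN at 0.22.

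**Figure D5:**
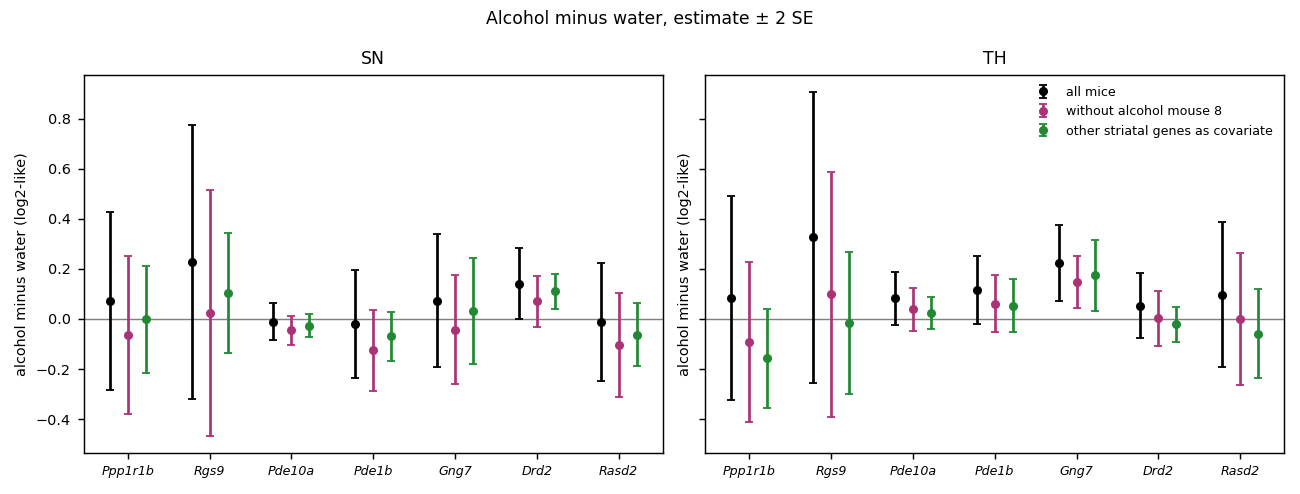
Alcohol minus water (log2-like, y axis) for 7 genes in SN and TH, as estimate ± 2 SE, for all mice, without alcohol mouse 8, and with the other striatal genes as a covariate. The Rgs9 estimate in TH goes from 0.33 to 0.10 and -0.02 over these settings, while Gng7 in TH stays above 0 at 0.22, 0.15 and 0.17. The covariate accounts for 79.5% of the variance of Rgs9 in TH and 23.7% of that of Gng7.

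Among the other striatal genes, the fractions of control mice differed in both directions. Of 38 kept genes 5 were called higher and 9 lower in SN, with a median difference of -0.02 against 0.00 over all genes, of which 19.9% were called higher and 21% lower. Zfp521 (0.25), Pde2a (0.28), a phosphodiesterase, and Adcy5 (0.43), the adenylyl cyclase of striatal neurons, were higher with adjusted p of 1.82e-05, 0.00023 and 0.000958. Kcnab1 (-0.28), a potassium channel beta subunit, Gucy1b1 (-0.22), a subunit of soluble guanylyl cyclase, and Tac1 (-0.48), the precursor of substance P, were lower with adjusted p of 0.00031, 0.000782 and 0.000941. Penk, the enkephalin precursor, was lower by 0.07 on a weak probe (adjusted p = 0.0447). Pdyn, the dynorphin precursor (-0.24, adjusted p = 0.0534), and Drd1 (-0.05), the dopamine D1 receptor, did not pass.

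In alcohol mice 6 of the 38 were called higher and 11 lower in SN, on the joint scale, with a median of -0.06, while 21.5% of all 12855 genes were called higher and 25.6% lower. Pde2a (0.34), Zfp521 (0.38) and Syndig1l (0.24) were higher, as was Adcy5 (0.24, adjusted p = 0.0247). Tac1 (-0.51), Hpca (-0.36), a neuronal calcium sensor, and Prkar2b (-0.36), a regulatory subunit of protein kinase A, were lower. So were Pdyn (-0.28) and Drd1 (-0.25), and Penk stood at -0.01 without passing. Alcohol against control called 0 of the 38 in SN and 0 in TH, with Tac1 at 0.34 (SE 0.17) in SN and 0.25 (SE 0.18) in TH. In TH 29 of the 38 differences lay above 0, with a median of 0.04, against 6687 of 13555 over all genes, and alcohol mouse 8, highest for these genes, enters them.

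The dopamine, adenosine and cAMP signalling list overlaps with the other striatal genes, for example in Adcy5, Pde2a and Prkar2b. It held 45 genes, 38 of them kept. In control mice 7 were called higher in SN and 15 lower, with a median of -0.05, against 19.9% and 21% of all genes. Adk, the adenosine kinase that clears adenosine in astrocytes, had the smallest p (0.44, adjusted p = 3.15e-06). Ppp1r9b, which encodes the spine scaffold spinophilin, was higher by 0.69 (adjusted p = 4.49e-05), a gene named here after its value was seen. In the alcohol comparison 0 of 38 were called in either fraction, and Gnb1 in SN and Cdk5 in TH had the smallest p. Markers of other cells are to be read against the same 19.9% and 21% in control mice: 14 of 14 astrocyte markers were called higher in SN, 9 of 10 endothelial and mural markers lower and 4 of 7 general neuronal markers lower. Oligodendrocyte markers had 3 higher and 5 lower of 8, microglia 4 higher of 10, choroid plexus 1 higher and 3 lower of 9, thalamus and hypothalamus 2 higher and 5 lower of 12, and cortex and hippocampus 2 higher and 4 lower of 15. The summed signal of the 14 astrocyte markers ran from 15.79 to 16.46 (log2) in control SN and from 15.33 to 15.89 in control TH. The part of these cells in the members' differences was not tested.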

How the data were processed

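mRNA was hybridized to Illumina Mouse WG-6 arrays. The deposited signal tables list 45281 probes; per the file headers each array has an average signal (a linear intensity) and a detection p-value. The authors also deposited normalized tables, whose values lie on a log2-like scale. The submitters' processing notes name lumi, with no version given in the sources used here. Testing the tables showed that each normalized one keeps exactly those probes whose detection p-value fell below 0.05 on 80% or more of its arrays (17820, 17514 and 18318 probes).

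The fits used limma 3.58.1 in R 4.3.3 (lmFit, eBayes, Benjamini-Hochberg over all probes, adjusted p under 0.05) on the normalized values. SN was set against TH within 11 control mice, each mouse being a block; the treatments were compared separately per fraction. The difference of the alcohol effect between fractions, and SN against TH in alcohol mice, used log2 signals quantile-normalized jointly for 17265 probes. Code was tested on simulated data. SN and TH pair by mouse because the labels describe one homogenate for both; the check of this stands with the results.

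For each gene the probe with the highest level is reported. For the members, other probes are given where call or sign differ in the fits described above. All members are named, and of the other striatal genes 6 fixed genes plus the 3 of smallest p in each direction. Of these and of the genes most like the members, 1 gene is not reported here. The members and lists were chosen with earlier results of these data known. miRNA arrays were not used. The number of arrays limits the precision. Which arrays shared a BeadChip is not given in the sources used here, so it was not tested. Python 3.11.15, numpy 2.4.6, pandas 2.3.3, scipy 1.17.1 and matplotlib 3.10.9 were also used.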

Additional observations from a re-analysis of the deposited data

Results flagged for a closer look

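In the alcohol groups of 8 mice, alcohol mouse 8 stood apart from the next mouse by more than Dixon's critical value in 6 of 22 groups of values, each time as the highest. In SN these were Pde10a (8.24), Gng7 (12.47) and both probes of Pde1b (12.90 and 12.89). In TH they were the second probes of Pde1b (12.95) and Gng7 (8.55). By chance about 1 group in 20 does so, and these 22 share mice and genes. Rgs9, Ppp1r1b, Drd2 and Rasd2 were also highest in that mouse, without passing the critical value. Groups of 11 or 13 control mice were not tested in this way.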

How the results depend on the processing

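In control mice 1 member gene was called between SN and TH. With array medians in place of quantiles the count was 2 (Ppp1r1b also passed, -0.22, adjusted p = 0.0490), without controls 4, 9 and 10 it was 2, and without controls 4, 9, 10 and 13 it was 3 (both chosen after seeing the data). Leaving out 1 mouse at a time gave 1 to 3 in control mice and 3 to 5 in alcohol mice. Without the replicate block (unpaired) Gng7 stood at 0.57 (adjusted p = 1.67e-06) and the count was 1. With title numbers as a replicate block, the alcohol comparison called 0 members in SN and 0 in TH; same-numbered alcohol and control mice correlated at -0.40 to 0.36, so the numbers were not taken as pairs. Other scalings, filters and covariates also called 0 members for alcohol, where leave-one-out gave 0 throughout. Drd2 was not kept where detection p under 0.01 was asked of every array. The median share of variance between mice was 69.5% and became 32.5% in control mice alone and 46.6% after regression on the other striatal genes. It was 83.3% without controls 4, 9 and 10 and 82.7% without controls 4, 9, 10 and 13. Leaving out mice by how their fractions matched raises this share by construction. The cause of the other changes was not tested. Weak probes such as Drd2 and Pde10a are limited by background: on uncompressed log2 signals, Drd2 in SN differed by 0.26 with alcohol against 0.14 on the authors' scale.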
